A study of Mus musculus with 12 samples.

Results

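This report covers the nuclear genes of the mitochondrial respiratory chain, ribosome, protein import machinery and carriers in an eIF4G2 CLIP data set from mouse primary cortical neurons. Members were chosen by gene symbol: every row whose name begins with one of the usual prefixes for the subunits of the respiratory complexes (Nduf, Sdh, Uqcr, Cyc, Cox), ATP synthase (Atp5), the mitochondrial ribosome (Mrpl, Mrps), protein import (Timm, Tomm), the Slc25a carriers, pyruvate and citric acid cycle enzymes (Idh, Mdh, Ogdh, Pdh, Pdk), fusion proteins (Mfn, Opa1), Tfam, and outer membrane or cristae proteins (Vdac, Immt, Chchd, Mtch). The rule found 50 of the 3366 named 5′ UTRs. They were 10 complex I genes, 4 of complex III, 5 of complex IV, 3 of ATP synthase, 9 of the mitochondrial ribosome, 3 of protein import, 10 carriers, 2 pyruvate and citric acid cycle enzymes, 3 fusion genes and Tfam. The Sdh, Cycs, Idh, Mdh, Pdk, Vdac, Immt, Chchd and Mtch parts of the rule matched no row used here.

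CLIP crosslinks a protein to the RNA it touches with ultraviolet light, immunoprecipitates the protein and sequences the attached RNA fragments as tags, which were counted here on 5′ UTRs. Cortical cells of CD-1 mouse embryos were cultured for 12 days, and each replicate came from 3 dishes. Depolarized cultures were exposed to tetrodotoxin and DL-AP5 for 2 h and then to 55 mM KCl for 1 h, followed by 30 min of recovery. Resting cultures were not depolarized, and both conditions received cycloheximide for 2 min before harvest. No sorting of cells is described, and in such bulk samples fewer cells of a type and less RNA per cell cannot be told apart, nor can RNA level and binding per RNA. Of 12 neuron markers 8 were listed, all with tags (174 in all, 143 of them on Syt1), and of 14 markers of glia and vessels only Aif1 was listed, with 1 tag. The table given for depolarized replicate 5 repeats resting replicate 5 value for value, under that library's heading, and was left out. The 6 resting libraries held 306 to 3224 tags and the 5 depolarized ones 264 to 5240, with replicate 1 the deepest of either condition. Where a library shows 0 tags, as many as 3 could have been missed by chance of counting. In CPM, counts scaled to the library total, 3 tags are 573 CPM in depolarized replicate 1, 931 CPM in resting replicate 1, 1311 CPM in depolarized replicate 3 and 3141 CPM or more in the others.

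Mitochondria make most of the ATP of a neuron by oxidative phosphorylation: complexes I to IV pass electrons to oxygen and pump protons, and ATP synthase uses the proton gradient. Most of the subunits are encoded in the nucleus, translated in the cytosol and imported through the TOM and TIM translocases, while a few hydrophobic subunits are encoded in mitochondrial DNA and made on the mitochondrial ribosome, whose own proteins are also nuclear-encoded. The SLC25 carriers move metabolites, phosphate and adenine nucleotides across the inner membrane. eIF4G2 is a translation initiation factor related to eIF4G that lacks the part that binds the cap-binding protein eIF4E, and it has been linked to initiation on mRNAs with upstream open reading frames.

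The hexamer CGCGGC, which the study names as an eIF4G2 motif, was looked for in the 5′ UTR of each gene in GENCODE M21 (GRCm38), taken from its longest coding transcript. It occurred in 10 of the 50 5′ UTRs of mitochondrial genes (20.0%) and in 1219 of all 3316 listed 5′ UTRs with a sequence (36.8%), searched on the mRNA strand. The 5′ UTRs of mitochondrial genes were shorter, with a median of 160.5 bases (range 31 to 775) against 306.5 bases over all. At the shares found in 5′ UTRs of like length, 14.1 of the 50 would hold it. Of the 14 mitochondrial 5′ UTRs of up to 100 bases 0 held it, against 10.7% of all such 5′ UTRs; for 101 to 200 bases it was 5 of 15 against 26.5%, for 201 to 400 bases 2 of 15 against 38.3%, and for longer ones 3 of 6 against 47.6%. The windows below show the hexamer in capitals in the 4 genes with the most tags among those that hold it, with 12 bases of the 5′ UTR on either side.
Slc25a44: cccagtctcagaCGCGGCtaaagcgctggg
Slc25a22: gcaggccccgcgCGCGGCacagcggggaag
Timm9: ttctcagctttcCGCGGCgcggcgctcgct
Ndufb10: cccatggtgcctCGCGGCtgcccactacgc
In Timm9 a second copy begins 5 bases after the first. Atp5g3 and Ndufs1, the only 2 mitochondrial genes with at least 10 tags, had no copy, nor did Mrpl53 or Slc25a23. The 10 5′ UTRs with the hexamer held 26 of the 150 tags on mitochondrial genes (17.3%), while over all listed 5′ UTRs those with the hexamer held 46.5% of the tags. Without Atp5g3 the share on mitochondrial genes was 23.0%. These shares of tags were not matched for 5′ UTR length. Median tags were 1 for mitochondrial 5′ UTRs with and without the hexamer.

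An ATG upstream of the start codon was present in 26 of the 50 5′ UTRs (52.0%) and in 66.6% of all listed 5′ UTRs. At the shares for like length, 24.5 of the 50 would have one. In 24 of the 26 at least 1 of these ATGs was followed by an in-frame stop codon within the 5′ UTR. All 4 members of complex III and both enzymes Ogdh and Pdha1 had no upstream ATG, whereas 8 of the 10 carriers and all 3 fusion genes had one. Ndufa13 had 13, on a 5′ UTR of 775 bases that overlaps Yjefn3. Because eIF4G2 acts at initiation, the start codon is shown in capitals for the genes described in full below, with the last 24 bases of the 5′ UTR.
Atp5g3: cacgccgcgccgccaggaagaaagATGttc
Ndufs1: ggtgggctccggaggaaagccatcATGtta
Slc25a44: agctagagaagcctgacgaggggtATGccc
Mrpl53: actccttccggggtggaggtaaccATGgcg
Slc25a23: tcccctcccccctgggcgggcgccATGcgg
A purine 3 bases before the ATG, as in the usual start context, was present in 45 of the 50 mitochondrial genes (90.0%) and in 86.7% of all. A G directly after the ATG was present in 22 of the 50 (44.0%) and in 48.9% of all.

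Over the 11 libraries the mitochondrial 5′ UTRs held 150 of 15767 tags. They were 1.49% of the listed 5′ UTRs and held 0.951% of the tags, and a gene had a median of 1 tag against 2 over all listed 5′ UTRs. Cox20 and Cox6a1 had 0 tags, 26 had 1 tag, and 2 (4.0%) had at least 10, a depth that 9.42% of all listed 5′ UTRs reached. Per length, the mitochondrial 5′ UTRs held a median of 10.2 tags per kb of 5′ UTR, against 7.0 tags per kb over all. Nearly every listed 5′ UTR has at least 1 tag, which gives short ones a high density, and among 5′ UTRs of like length the mitochondrial genes did not stand higher throughout. Their median was 22.7 tags per kb against 23.5 for up to 100 bases, 9.90 against 9.17 for 101 to 200 bases, 4.85 against 5.90 for 201 to 400 bases and 2.23 against 4.28 for longer ones, in classes set after seeing the data. Summed, they held 14.2 tags per kb against 12.2 tags per kb, and 10.8 tags per kb without Atp5g3. The plot of 5′ UTR length against tags shows that these genes lie mostly among the shorter 5′ UTRs.

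**Figure D1:**
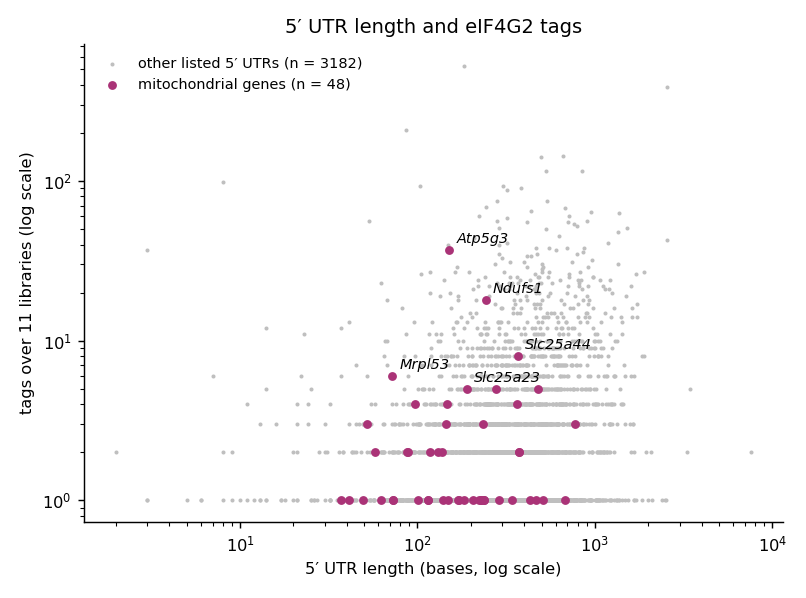
Tags over the 11 libraries (y axis, log scale) against 5′ UTR length in GENCODE M21 (x axis, bases, log scale) for the 48 mitochondrial genes with a tag (purple) and the other listed 5′ UTRs with a tag (grey). Atp5g3, with 37 tags on 151 bases, stands highest among the mitochondrial genes, followed by Ndufs1 with 18 tags on 242 bases.

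The share of a library's tags that fell on mitochondrial 5′ UTRs was compared between resting and depolarized neurons. In resting replicates 1 to 6 it was 0.620%, 0.270%, 0%, 0.412%, 0.862% and 1.20%, from 20, 1, 0, 3, 8 and 11 tags. In depolarized replicates 1, 2, 3, 4 and 6 it was 1.28%, 1.36%, 1.01%, 0.364% and 0.758%, from 67, 13, 23, 2 and 2 tags. The groups overlapped, since depolarized replicate 4 lay below 4 of the 6 resting libraries and resting replicate 6 above 3 of the 5 depolarized ones. Resting libraries averaged 0.561% ± 0.431 (SD, n = 6), depolarized libraries 0.953% ± 0.406 (SD, n = 5). The difference of 0.392 percentage points was smaller than the spread between libraries (pooled SD 0.419). The replicate pairs went both ways: the share was higher after depolarization by 0.658, 1.09 and 1.01 percentage points in replicates 1, 2 and 3, and the difference was -0.0472 and -0.447 in replicates 4 and 6. Within replicates 1 to 3 the mean difference was 0.918 percentage points and within replicates 4 to 6 it was -0.265. Depth moved with this as well, since in replicates 1 to 3 the depolarized library was the deeper of each pair and in replicates 4 and 6 the shallower; its part in the result was not tested. The 8 listed neuron markers together held 48 tags at rest (0.742% of resting tags; 4 to 13 per library) and 126 after depolarization (1.36%; 3 to 59 per library), of which Syt1 alone held 40 and 103. In the pooled test described below 2 of the 8, Syt1 and Map2 (2 and 13 tags), were higher and 0 lower. The listed glial marker had 0 to 1 tag per library; their part was not tested either.

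**Figure D2:**
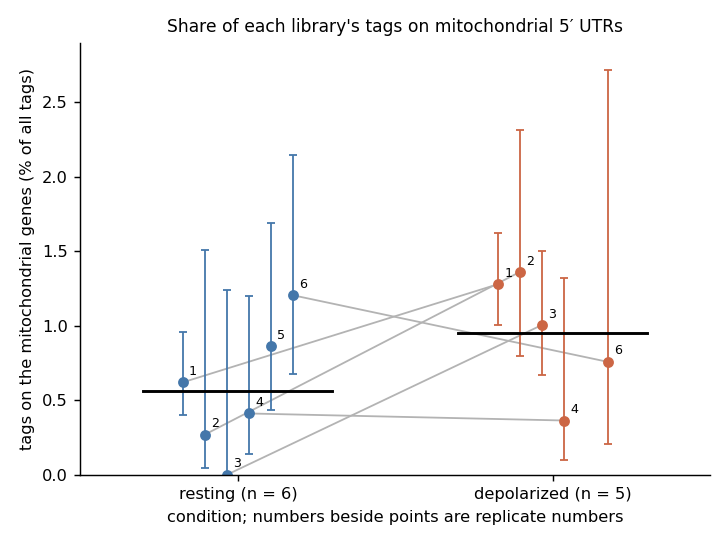
Share of each library's tags that fell on the 50 mitochondrial 5′ UTRs (y axis, percent) in resting and depolarized neurons (x axis). Points are libraries with Wilson 95% intervals, which cover counting error only, grey lines join replicates of the same number and black bars are group means (0.561% and 0.953%). The lines rise for replicates 1 to 3 and fall for replicates 4 and 6.

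Of the 48 mitochondrial 5′ UTRs with a tag, 26 were tagged after depolarization only, 10 at rest only and 12 in both. The 26 are 54.2% of the 48, where 36.3% of all tagged 5′ UTRs had tags after depolarization only. The 10 are 20.8%, where 27.9% of all had tags at rest only. A 5′ UTR with 1 tag is always tagged in 1 condition only. Such were 52.0% of the listed mitochondrial 5′ UTRs and 40.8% of all listed ones, and the percentages were not matched for tag number. Most of the 26 rest on a single tag, and the depolarized libraries held more tags in all (9296 against 6471), which the percentages over all 5′ UTRs share. Without replicate 1 the counts were 15 and 7 of 28, that is 53.6% and 25.0%, against 43.1% and 31.0% over all. Within replicates 4 to 6 they turned to 1 and 11 of 13 (7.69% and 84.6%, against 19.1% and 66.4% over all).

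Each gene was then tested on the summed tags of each condition, after scaling both conditions to their average total, with a two-sided exact binomial test at P below 0.2, the threshold of the study. With this test 2 mitochondrial genes, Ndufs1 and Slc25a23, passed with more tags after depolarization and 0 with fewer. That is 4.17% of the 48 tagged, where 5.21% of all tagged 5′ UTRs passed with more tags and 4.51% with fewer, so the number of mitochondrial genes passing was near that of the whole table. A 5′ UTR tagged in 1 condition alone needs 5 depolarized or 3 resting tags to pass. In all, 8 of the 48 tagged mitochondrial genes and 938 of all 3280 tagged 5′ UTRs had enough tags to do so. The shares passing were not matched for this. With TMM effective library sizes, which shift every log2 fold change by 0.20, 5 passed with more tags (Atp5g3, Ndufs1, Slc25a23, Slc25a4 and Timm9) and 0 with fewer, against 7.1% and 2.74% of all. In the exact test within replicate numbers 3 passed with more tags, Atp5g3, Timm9 and Slc25a23, against 4.36% of all, and 0 with fewer, against 10.1% of all. Without replicate 1, 0 passed in either direction. Summed tags carry no spread between libraries, so edgeR's quasi-likelihood test was run on the 317 5′ UTRs with at least 10 tags. At an adjusted P of 0.05 it called 0 of the 2 mitochondrial genes tested and 0% of all. Before adjustment, 0 of the 2 passed 0.05, where 7.57% of all were higher and 0.315% lower. DESeq2 on the same 2 genes, an exact permutation test on the CPM of 48 and edgeR on 48 without the filter also called 0, with 0, 0 and 3 mitochondrial genes passing 0.05 before adjustment. The 3, all higher, are of 48, and in that fit 2.62% of all 5′ UTRs were higher and 1.8% lower before adjustment. The shares over all were 1.58% higher and 0% lower with DESeq2, and 0.427% higher and 0.0305% lower with the permutation test.

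**Figure D3:**
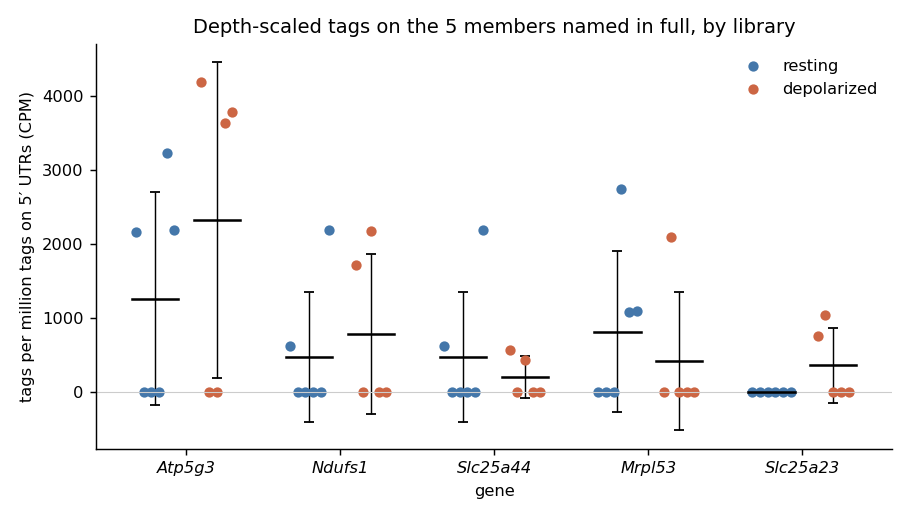
Depth-scaled tags (y axis, CPM) of Atp5g3, Ndufs1, Slc25a44, Mrpl53 and Slc25a23 (x axis) in the 6 resting (blue) and 5 depolarized (orange) libraries, with points at 0 for libraries without a tag, bars at the group mean and whiskers of 1 SD. The whiskers of the conditions overlap for Atp5g3, Ndufs1, Slc25a44 and Mrpl53, and for Slc25a23 the depolarized whisker reaches past 0, where every resting library lies.

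ATP synthase held the most tags of these groups, 41, nearly all on Atp5g3, which encodes subunit c of the rotor ring that proton flow turns. Its 5′ UTR lies on chromosome 2, 73910994 to 73911325 (GRCm38, minus strand), in 2 exons, and no other annotated gene overlaps it. Resting replicates 1 to 6 gave 7, 0, 0, 0, 3 and 2 tags, and depolarized replicates 1, 2, 3, 4 and 6 gave 22, 0, 0, 2 and 1. With 245 tags per kb of 5′ UTR it ranked 29 among the 3316 5′ UTRs whose sequence was found. The 3 resting libraries with a tag had 2171, 3233 and 2191 CPM, and the 3 depolarized libraries with a tag had 4198, 3643 and 3788 CPM. Depolarized replicate 3 had 0 tags at a depth where 3 tags are 1311 CPM, so the depolarized libraries differed among themselves beyond this limit. The level averaged 1266 ± 1439 CPM (SD, n = 6) over resting and 2326 ± 2133 CPM (SD, n = 5) over depolarized libraries. This difference was smaller than the replicate error (edgeR log2 fold change 0.48, standard error 0.97, Benjamini-Hochberg adjusted P = 0.908). On summed tags the ratio of depolarized to resting was 1.45 (exact 95% interval 0.702 to 3.17; exact binomial P = 0.405). Within replicate numbers the exact test gave P = 0.0511, with 5.51 more depolarized tags than the depths of the pairs predict. In CPM each replicate pair with a tag was higher after depolarization, but only replicate 1 held more than 3 tags in both libraries. Replicate 1 went from 2171 to 4198 CPM (7 and 22 tags). Replicate 4 went from 0 to 3643 CPM (0 and 2 tags), where 3 tags in the resting library are 4115 CPM. Replicate 6 went from 2191 to 3788 CPM (2 and 1 tags), where 3 tags in the depolarized library are 11364 CPM. The pooled log2 fold change, which ignores the pairs, was 0.53, but -1.03 without replicate 1 and 0.90 within replicates 4 to 6. Atp5g1, another gene for subunit c, had 1 resting and 2 depolarized tags, all in replicate 1, and Atp5a1, which encodes the alpha subunit of the catalytic head, had 1 depolarized tag.

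Complex I, which takes electrons from NADH, held 33 tags, 7 at rest and 26 after depolarization, of which 18 came from depolarized replicate 1 and 8 from depolarized replicate 3. Ndufs1, an iron-sulfur subunit of its NADH-oxidizing arm, held 18 of them. Its 5′ UTR lies on chromosome 1, 63170910 to 63176822 (minus strand), in 2 exons. It had 2 tags in resting replicate 1, 2 in resting replicate 6 and 0 in the other resting libraries, against 9 in depolarized replicate 1, 5 in depolarized replicate 3 and 0 in the other depolarized libraries. The libraries with a tag had 620 and 2191 CPM at rest and 1718 and 2185 CPM after depolarization, so the conditions overlapped. The level averaged 468 ± 879 CPM (SD, n = 6) over resting and 781 ± 1082 CPM (SD, n = 5) over depolarized libraries, means less than 1 SD of either condition apart, and the difference did not pass the test (edgeR log2 fold change 1.14, standard error 1.08, Benjamini-Hochberg adjusted P = 0.862). On summed tags the ratio was 2.44 (exact 95% interval 0.765 to 10.2; exact binomial P = 0.143), and within replicate numbers P was 0.284, so the call at P below 0.2 was lost. It was also lost without replicate 1, 3 or 5 and with all 12 libraries as labelled, and was kept without replicate 2, 4 or 6. The pooled log2 fold change was 1.27 over the 11 libraries and 0.97 to 2.07 with each replicate left out. Within replicates 4 to 6, where only resting replicate 6 had tags on Ndufs1, it was -3.82. The other 9 genes of complex I had 1 to 3 tags each. The accessory subunits Ndufa13 and Ndufb10 had 3 tags each and Ndufc1 had 2, all in depolarized replicate 1. Ndufa1, Ndufa2 and Ndufa5, also accessory subunits, had 1 depolarized tag each. Ndufa4, whose protein is now counted with complex IV, had 1 tag in each condition, and the assembly factor gene Ndufaf3 and the accessory subunit gene Ndufb3 had 1 resting tag each.

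Complexes III and IV held 5 tags each. In complex III, which reduces cytochrome c, Uqcrq had 2 depolarized tags, the core protein gene Uqcrc2 and the Rieske iron-sulfur protein gene Uqcrfs1 had 1 depolarized tag each, and the cytochrome c1 gene Cyc1 had 1 resting tag. In complex IV, which reduces oxygen, the structural subunit gene Cox7b had 2 depolarized tags, both in replicate 3. Cox15, needed for the synthesis of heme a, had 1 tag in each condition, and Cox18, which helps to insert a subunit into the inner membrane, had 1 resting tag. The structural subunit gene Cox6a1 and the assembly factor gene Cox20, with 0 tags, had 5′ UTRs of 31 and 40 bases, the shortest of the complex IV genes. No difference between conditions was detectable at this depth for any of these genes.

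The 9 genes of the mitochondrial ribosome held 20 tags, 8 at rest and 12 after depolarization. Mrpl53, a protein of the large subunit, had the most, with 2, 1 and 1 tags in resting replicates 4, 5 and 6, 0 in resting replicates 1 to 3, and 2 in depolarized replicate 2 as its only depolarized tags. Its 5′ UTR (chromosome 6, 83109040 to 83109111, plus strand, 1 exon) has 72 bases and held 83.3 tags per kb, and it overlaps Gm42688 on the same strand and Ccdc142os on the other, whose tags cannot be told apart from its own. The level averaged 819 ± 1083 CPM (SD, n = 6) over resting and 419 ± 937 CPM (SD, n = 5) over depolarized libraries, and the libraries of the conditions overlapped (P = 0.5 by two-sided exact permutation, Benjamini-Hochberg adjusted over all tagged 5′ UTRs P = 0.997). On summed tags the ratio was 0.348 (exact 95% interval 0.0315 to 2.43; exact binomial P = 0.453). Single replicates decide this value: the pooled log2 fold change was -1.47 with all, -5.60 without replicate 2, where it passed with fewer tags (exact binomial P = 0.0625), -0.58 without replicate 4 and 3.96 within replicates 1 to 3. Mrpl57 had 1 resting and 3 depolarized tags, Mrpl41 had 3 and Mrpl24 had 2, all depolarized, and Mrpl37 and the small-subunit gene Mrps23 had 1 depolarized tag each. Mrpl49, Mrpl55 and the small-subunit gene Mrps10 had 1 resting tag each.

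The 10 SLC25 carriers held 29 tags, 8 at rest and 21 after depolarization. Slc25a44, a carrier of branched-chain amino acids, had 2 tags in resting replicate 1 and 2 in resting replicate 6, and 3 in depolarized replicate 1 and 1 in depolarized replicate 3, with 0 in the other libraries. Its 5′ UTR lies on chromosome 3, 88424772 to 88425139 (minus strand), in 1 exon. Its level averaged 468 ± 879 CPM (SD, n = 6) over resting and 202 ± 281 CPM (SD, n = 5) over depolarized libraries, a difference smaller than the replicate error (two-sided exact permutation test, P = 0.727, adjusted P = 1). The direction turned without replicate 6, where the pooled log2 fold change was 0.29 against -0.51 with all. Slc25a23, a calcium-regulated carrier that exchanges ATP-Mg for phosphate, had 0 tags in the 6 resting libraries, 4 in depolarized replicate 1, 1 in depolarized replicate 2 and 0 in the other 3. Its 5′ UTR lies on chromosome 17, 57059674 to 57059863 (minus strand), in 1 exon, and overlaps Crb3 on the other strand. On summed tags the exact 95% interval of its ratio had a lower limit of 0.638, below 1 (exact binomial P = 0.125), and the libraries did not separate, since 3 depolarized libraries also had 0 (two-sided exact permutation test on CPM, P = 0.182, adjusted P = 0.919). The call at P below 0.2 was lost without replicate 1 or 2. Slc25a25, of the same kind of carrier, had 1 tag in each condition, both in replicate 1. Slc25a22, a glutamate carrier, had 2 tags in resting replicate 6 and 3 in depolarized replicate 2, and Slc25a4, the adenine nucleotide translocator, had 1 tag in depolarized replicate 1 and 3 in depolarized replicate 3. Slc25a1 (citrate), Slc25a3 (phosphate) and Slc25a39 (glutathione) had 1 depolarized tag each, and Slc25a51 (NAD+) had 1 resting tag.

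**Figure D4:**
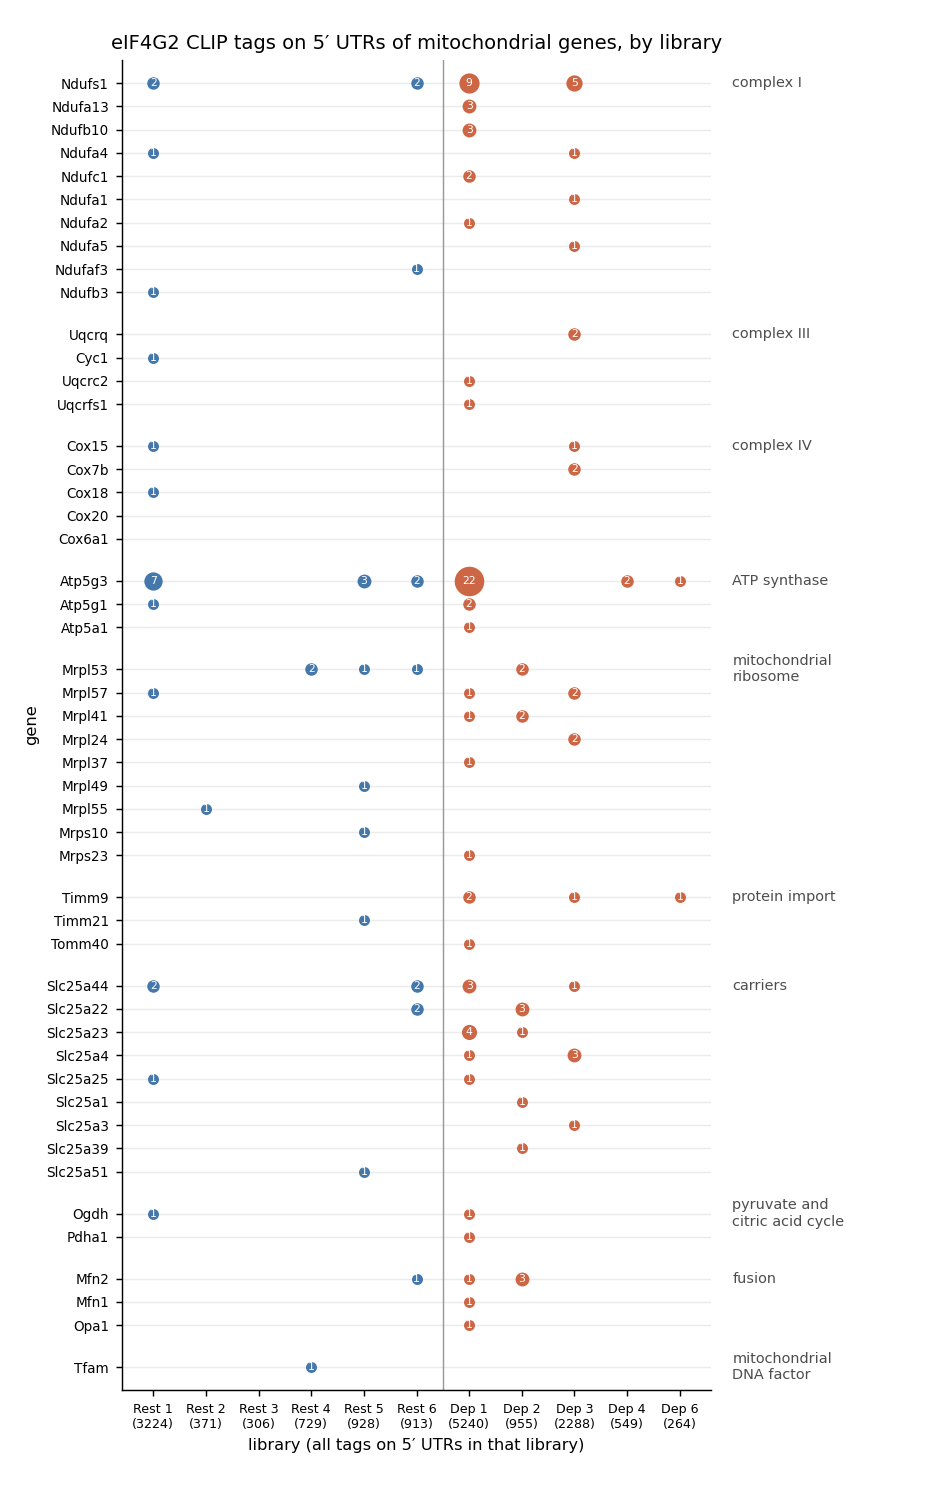
Tags on 49 of the 50 mitochondrial 5′ UTRs (rows, grouped by complex or role) in each library (columns, resting in blue, depolarized in orange, with the library's total of tags on all 5′ UTRs below). The number in each circle is the count and no circle means 0; resting replicate 3 has no circle, and depolarized replicate 1, the deepest library, has tags on 25 of the genes drawn.

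Among the import genes, Timm9, a small chaperone of the intermembrane space, had 2, 1 and 1 tags in depolarized replicates 1, 3 and 6 and 0 at rest. It was the only gene tagged in 3 depolarized libraries and no resting one, but its 4 depolarized tags are too few to pass the pooled test with library totals (exact binomial P = 0.25; with TMM, exact binomial P = 0.125; within replicate numbers, exact P = 0.0891). On CPM the two-sided exact permutation test gave P = 0.0606 (Benjamini-Hochberg adjusted over all tagged 5′ UTRs, P = 0.919). Tomm40, the channel of the outer membrane translocase, had 1 depolarized tag and Timm21, of the inner membrane translocase, 1 resting tag. Of the fusion genes, Mfn2 had 1 resting and 4 depolarized tags, 3 of the latter in replicate 2, and Mfn1 and Opa1 had 1 depolarized tag each. Ogdh, of the citric acid cycle, had 1 tag in each condition, Pdha1, of pyruvate dehydrogenase, 1 depolarized tag, and Tfam, which packages mitochondrial DNA and drives its transcription, 1 resting tag.

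A list of 157 other mitochondrial genes outside the rule (translation factors, proteases, fission and transport proteins, calcium uniporter, metabolic enzymes) was read beside these. The tables list 30 of them, 28 with a tag, and they held 19 tags at rest (0.294% of all resting tags) and 27 after depolarization (0.290% of all depolarized tags). Of the 28 tested, 0 passed the pooled test in either direction, where 5.21% of all passed with more tags and 4.51% with fewer, but only 1 of the 28 had enough tags to pass. Too few tags fell on any of them to meet the rule for naming; the most tagged, picked after their values were seen, were Lonp1, the matrix protease, with 4 resting and 1 depolarized tags, and Trak1, an adaptor for mitochondrial transport on microtubules, with 4 depolarized tags. On pooled tags the genes of the rule held 0.665% of resting and 1.15% of depolarized tags.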

How the data were processed

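The authors processed the single-end CLIP reads with CLIP Tool Kit (quality filter, demultiplexing, removal of exact duplicates), aligned them to mm10 with Rsubread allowing 5 mismatches, and counted them with summarizeOverlaps on the UCSC 5′ UTR of each gene's longest transcript; the submitters' processing notes also name cutadapt. They deposited raw counts per library. Strand use and the handling of reads with several alignments are not given in the sources used here. Intervals and limits cover counting error only.

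Of 3367 rows, the 1 without a name held 0 tags (0%) and was left out. The members and gene lists were chosen with earlier results of these data known. The pooled test follows the study's description in part (tags normalized for depth, binomial test, log2 fold change with a pseudocount of 0.1). Summing tags per condition, scaling to the average total and the exact two-sided test against 0.5 were chosen here. Ratios carry exact (Clopper-Pearson) 95% intervals and shares Wilson intervals. The test over replicates was edgeR 4.0.16 in R 4.3.3 (quasi-likelihood, TMM, at least 10 tags, Benjamini-Hochberg over 317 5′ UTRs, common dispersion 1.00). DESeq2 1.42.0 and an exact permutation test on CPM (462 arrangements) served as alternatives. Python 3.11.15, scipy 1.17.1 and matplotlib 3.10.9 were used.

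Replicate numbers pair the samples: the labels say that the resting and depolarized samples of a replicate were combined after reverse transcription, and deviations of same-numbered libraries from their condition means correlated at 0.127 to 0.276, although in replicates 3 and 4 a library of another number correlated higher (0.175 and 0.234). The labels give 6 replicates, the study's methods 5. P values of edgeR, DESeq2 and the permutation test measure the spread between these libraries. The main edgeR fit, DESeq2 and the permutation test did not use the pairing. P values of the pooled test and of the exact test within replicate numbers cover counting error only. 5′ UTR positions and sequences come from GENCODE M21, matched by symbol for all 50 members and 3316 of 3366 genes; the transcript may differ from the one counted. By rule, members with at least 6 tags or a pooled P below 0.2 were given in full; Timm9 was added after its values were seen. Values of 1 member are not reported here singly; it is counted in all sums.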

Additional observations from a re-analysis of the deposited data

Results flagged for a closer look

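Of 16 groups of libraries examined with Dixon's 95% criterion for a single distant value, 4 had a highest library past it, where chance gives about 0.8 for continuous values. That figure does not apply to the 3 single-gene flags below, since 1 tagged library among libraries at 0 can pass the criterion by itself. Resting replicate 1 held 3224 tags and the next resting library 928. For Ndufs1, resting replicate 6 had 2191 CPM, from 2 tags, and the next resting library 620. For Slc25a44 the same library had 2191 CPM, also from 2 tags, and the next 620. For Mrpl53, 2 tags gave depolarized replicate 2 a level of 2094 CPM, against 0 in each of the remaining 4. All 3 single-gene values rest on 2 tags each.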

How the results depend on the processing

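With 150 tags on 50 genes, 1 tag more or less decides most single-gene values. The exact permutation test, the pair means and values for replicates 1 to 3, replicates 4 to 6 or all 12 libraries on single genes, and all alternatives for genes tagged in 1 condition, were chosen after seeing the data; the cause of changes was not tested unless the setting itself gives it. The 2 genes passing the pooled test with more tags became 5 with TMM, 1 among 5′ UTRs with at least 10 tags, 1 with all 12 libraries as labelled, 0 within replicates 4 to 6, 0 at a P threshold of 0.05 with or without adjustment; leaving out each replicate gave 0 to 2. Genes passing with fewer tags were 0 to 1 when each replicate was left out (Mrpl53 without replicate 2). With the replicate block, 3 passed with more tags, and edgeR with the block called 0, as in the other fits with edgeR or DESeq2. Without replicate 1, 0 mitochondrial genes had 10 tags. Genes tagged after depolarization only numbered 15 to 28 with each replicate left out and 1 within replicates 4 to 6; genes tagged at rest only numbered 6 to 12, and 4 within replicates 1 to 3. The difference in share was 0.918 percentage points within replicates 1 to 3, -0.265 within replicates 4 to 6 and 0.452 as the mean of replicate pairs (the pairing); leaving out each replicate gave 0.232 to 0.570. Pooled log2 fold changes that turned were -3.82 for Ndufs1 within replicates 4 to 6, -1.03 for Atp5g3 without replicate 1 (leaving out another replicate gave up to 0.87, and replicates 4 to 6 alone 0.90), 0.29 for Slc25a44 without replicate 6 (leaving out another replicate gave down to -1.23, and replicates 4 to 6 alone -3.82) and 3.96 for Mrpl53 within replicates 1 to 3.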
